A study of Rattus norvegicus with 12 samples.

Results

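The genes described here are 8 genes known for heat production in brown adipose tissue: Ucp1, Ucp3, Cidea, Ppargc1a, Cpt1b, Fabp3, Dio2 and Elovl3. All probe sets annotated with 1 of these symbols and no other were taken, which gave 11 probe sets of the 31042 on the array, and 8 of the 14217 genes with a probe set of their own. RNA from Wistar rats was hybridised in 4 groups of 3 arrays: adult semilunar valves (aortic and pulmonary, male rats), the proximal part of the adult aorta (male rats), neonatal semilunar valves and the proximal part of the neonatal aorta, the newborn tissue being taken within 24 h of birth. All rats were untreated as far as the labels say, and the adults' age and the newborns' sex are not given. Whether the fat around the vessel was trimmed away is not given in the sources used here. Nor is it given whether an array holds 1 animal or a pool, so p-values measure the spread between these arrays, which may be technical.

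Brown adipocytes burn fatty acids in mitochondria whose inner membrane carries uncoupling protein 1, the product of Ucp1, which lets protons return without making ATP and so releases heat. Noradrenaline acting on the beta-3 adrenergic receptor raises cyclic AMP, which releases fatty acids from lipid droplets and induces Ucp1 and also Ppargc1a, a coactivator that drives mitochondrial genes. In rodents the fat around the thoracic aorta resembles brown fat, and several of the same genes (Ppargc1a, Cpt1b, Fabp3) also serve heart and skeletal muscle, which burn fatty acids for contraction.

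Cyclic AMP acts on genes through the response element TGACGTCA or its half-site TGACG, and nuclear receptors such as the PPARs and the thyroid hormone receptor bind AGGTCA. The 250 bases before the start of 1 annotated transcript per gene are shown for the 2 uncoupling protein genes, which were read mainly in the aorta, and for the 2 tested member genes whose group means were highest in neonatal valves. They are RefSeq sequences on build GRCr8, given 5′ to 3′ on the gene's own strand, with both half-sites, read on either strand, in capitals, and 7 of the 8 genes had an entry (all but Cpt1b).
Ucp1, chr19:41721422-41721671, minus strand: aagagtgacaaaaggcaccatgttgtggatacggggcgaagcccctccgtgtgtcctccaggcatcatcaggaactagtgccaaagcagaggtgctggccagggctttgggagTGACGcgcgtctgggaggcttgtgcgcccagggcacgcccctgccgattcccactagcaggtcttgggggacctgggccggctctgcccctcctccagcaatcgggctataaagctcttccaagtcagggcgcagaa
Ucp3, chr1:164227660-164227909, plus strand: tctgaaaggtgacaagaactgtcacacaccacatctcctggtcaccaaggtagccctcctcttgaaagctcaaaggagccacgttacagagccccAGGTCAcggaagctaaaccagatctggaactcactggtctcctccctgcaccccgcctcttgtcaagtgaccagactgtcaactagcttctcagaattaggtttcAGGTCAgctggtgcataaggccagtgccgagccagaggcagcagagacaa
Ppargc1a, chr14:63634058-63634307, plus strand: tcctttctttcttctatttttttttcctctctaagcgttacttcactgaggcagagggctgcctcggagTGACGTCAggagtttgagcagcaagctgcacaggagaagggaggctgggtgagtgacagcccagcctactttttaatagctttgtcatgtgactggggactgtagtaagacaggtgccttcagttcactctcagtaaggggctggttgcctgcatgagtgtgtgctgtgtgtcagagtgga
Fabp3, chr5:147935875-147936124, plus strand: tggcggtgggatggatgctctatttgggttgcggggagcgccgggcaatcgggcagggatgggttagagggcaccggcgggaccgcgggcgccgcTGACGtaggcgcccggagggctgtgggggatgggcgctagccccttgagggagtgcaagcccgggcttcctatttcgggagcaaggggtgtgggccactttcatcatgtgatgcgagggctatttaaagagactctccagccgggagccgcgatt
The stretches of Ucp1 and Ucp3 end where the annotated gene begins, whereas the transcript start used for Ppargc1a lies 560803 bases, and that for Fabp3 98 bases, downstream of the first base of the annotated gene, so the Ppargc1a stretch is not the one before the gene's first annotated base. The Ucp1 stretch holds 1 TGACG, 137 to 133 bases before the start, and a TATAAA 30 to 25 bases before it. The Ucp3 stretch holds AGGTCA at 155 to 150 and at 50 to 45 bases before the start, and no TGACG. The Ppargc1a stretch holds the full palindrome TGACGTCA, 181 to 174 bases before the start, which on both strands contains the half-site, so TGACG and CGTCA overlap there. The Fabp3 stretch holds 1 TGACG at 155 to 151. Among 33469 rat promoter stretches of the same length, searched on both strands, 18.2% held TGACG, 1.59% held TGACGTCA, 14.1% held AGGTCA and 12.9% held TATAAA. Neither TGACG nor AGGTCA occurred in these letters in Cidea, Dio2 or Elovl3. A match describes the letters and is not a measured binding site.

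The signals are MAS5 intensities scaled by the submitters, each array to a trimmed mean of about 500.1 to 500.2. Groups follow the sample titles, because the description and tissue entries of 6 of the 12 samples name another group, with adult aorta and neonatal valve exchanged. The fetal growth factor gene Igf2 read 184 to 376 in adult valves, 339 to 879 in adult aortas, 6189 to 8898 in neonatal valves, and 17222 to 20768 in neonatal aortas, the split in age that the titles give. Arrays of one group ranked probe sets alike, with Spearman correlations of 0.916 to 0.953 in adult valves, 0.812 to 0.925 in adult aortas, 0.926 to 0.953 in neonatal valves and 0.948 to 0.960 in neonatal aortas. The 3′ to 5′ ratio of the beta-actin probe sets, a measure of RNA integrity, was 7.24 to 14.0 on the 6 valve arrays and 1.40 to 2.59 on the 6 aorta arrays, and the median signal was 133 to 170 and 183 to 202 on them. Each valve over aorta difference below therefore runs along with this ratio. The ratio was 14.0, 10.6 and 12.7 on adult valve arrays 1 to 3, and 7.24, 7.86 and 8.84 on neonatal valve arrays 1 to 3. Differences of adult over neonatal valve therefore run along with the ratio too, and its part in either kind of difference was not tested. On neonatal aorta arrays 2 and 3 the 7 probe sets at the 3′ end of the added control RNAs read 2.52 to 54.6, against at least 137 on the other 10 arrays, and 54.6 is used below as an approximate level of absent RNA.

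The summed signal of 19 general adipocyte genes lay between 8429 and 14975 in adult valves, between 26394 and 277578 in adult aortas, between 9573 and 13870 in neonatal valves, and between 58636 and 98102 in neonatal aortas. Adult aorta 2 had by far the highest sum, and the other adult aorta arrays read 26394 and 53449. The sum of 14 cardiac muscle genes lay between 8675 and 132117 in adult valves, between 7490 and 61118 in adult aortas, between 130586 and 145423 in neonatal valves, and between 50471 and 82072 in neonatal aortas. The 61118 is the sum of adult aorta 1 alone, the other adult aorta arrays having 7490 and 8454, and it is carried by Myl3 (29461.5) and Mb (29489.6), which skeletal muscle also expresses. On that array Myh6, Tnni3 and Myl7 read 6.63, 18.2 and 65.1. Pln, Myl4, Tnnc1, Mybpc3 and Ryr2 read 619, 440, 413, 245 and 219 there. Of these genes, Myl4, Myl7 and Tnnc1 were higher than on adult aorta 2 and 3, and the others were lower. On adult aorta 1, 9 of the 14 cardiac genes were above the absent level, against 7 on adult aorta 2 and 7 on adult aorta 3. The cardiac troponin gene Tnnt2 read 107, 12.2 and 2.15 on adult aorta arrays, below the absent level on 2 of them, and 4249, 18839 and 1864 on adult valve arrays. Skeletal muscle markers (15 genes) summed to 273084 on adult aorta 1, against 14121 and 19802 on the other adult aorta arrays, and that array also read 37297 for the squamous keratin gene Krt13, so that it stands apart from the other arrays of its group. Krt13 was also high on neonatal aorta 2 (21012), against 2009 and 166 on neonatal aorta arrays 1 and 3. Smooth muscle markers were above the absent level for all 7 genes on every array.

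Ucp1 was above the absent level on every aorta array at both ages, and on valve arrays it was at or near that level. On adult aorta 1 and neonatal aorta 3 it was far lower than on the other arrays of their groups. Its signals were 19.7, 3.30 and 63.1 in adult valves, 302, 37326 and 16514 in adult aortas, 1.55, 22.9 and 2.59 in neonatal valves, and 5394, 4256 and 295 in neonatal aortas. No valve array reached the lowest aorta array, and 1 of the 6 valve arrays read above 54.6. The limma fit to log2 signals floored at 1 called Ucp1 lower in adult valve against adult aorta (adjusted p = 0.0047) and in neonatal valve against neonatal aorta (adjusted p = 0.0046). Ucp1 passed the filter on low signals (above the median of all values, 171.9, on at least 3 arrays) only through aorta arrays. Without the filter limma gave an adjusted p of 0.0057 between adult tissues and 0.0056 between neonatal tissues. Computed apart from the limma fits and not tested, with valve signals under the absent level set to it, Ucp1 was at least 99.6-fold lower in adult valves than in adult aortas and at least 34.6-fold lower in neonatal valves than in neonatal aortas. Leaving out 1 array moved the adult bound between 39.0-fold (without adult aorta 2) and 433-fold (without adult aorta 1) and the neonatal bound between 20.5-fold (without neonatal aorta 1) and 87.7-fold (without neonatal aorta 3). In the aorta the ages did not separate: the log2 difference of adult over neonatal aorta was 1.59 ± 1.84 (SE, 3 arrays each; limma, adjusted p = 0.66). The 3 adult aorta arrays spanned 124-fold, with adult aorta 1 close to the lowest neonatal array. Without adult aorta 1 the log2 difference was 3.71 (adjusted p = 0.13), and without adult aorta 2, the brightest array, it was 0.24 (adjusted p = 0.96). The fitted difference of adult valve over adult aorta was -8.48 with all arrays, -10.60 without adult aorta 1 and -7.12 without adult aorta 2, values that are no bound because the valve signals are near absent. Between adult and neonatal valves both levels were near absent and no fold is given (adjusted p = 0.57). In bulk tissue, fewer cells of a type and less RNA per cell cannot be told apart.

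**Figure D1:**
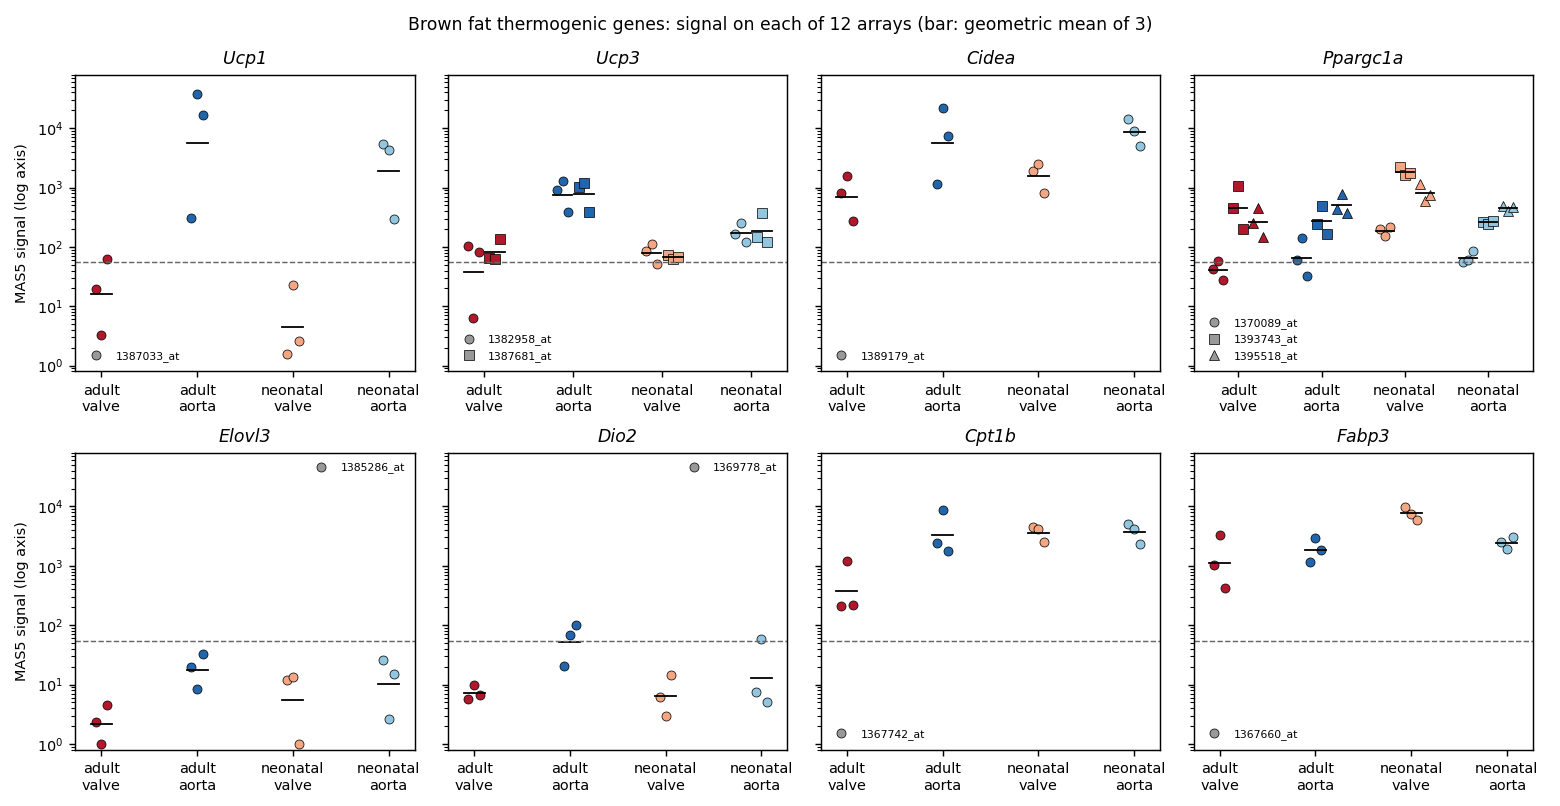
MAS5 signal (log axis) of each member gene on each of the 12 arrays, by group, with 1 point per array and probe set (shape), the geometric mean of 3 as a bar and the absent level of 54.6 as a dashed line; signals under 1 are drawn at 1. Ucp1 lies between 295 and 37326 on aorta arrays and between 1.55 and 63.1 on valve arrays, whereas each probe set of Ppargc1a and Fabp3 has its highest group mean in neonatal valves.

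Ucp3 encodes a mitochondrial carrier related to uncoupling protein 1 that is best known from skeletal muscle and brown fat. It was measured by a pair of probe sets. On 1387681_at the signals were 64.5, 62.1 and 133 in adult valves, 1039, 1193 and 383 in adult aortas, 72.6, 63.5 and 67.1 in neonatal valves, and 145, 375 and 121 in neonatal aortas. All adult aorta arrays lay above all others, although adult aorta 3 and neonatal aorta 2 nearly met. Ucp3 rose 4.17-fold in adult over neonatal aorta on this probe set (log2 2.06 ± 0.53, limma, adjusted p = 0.038) and fell 9.62-fold in adult valve against adult aorta (log2 -3.27 ± 0.53, adjusted p = 0.00097). The age call was lost without neonatal aorta 1, neonatal aorta 3, adult aorta 1, adult aorta 2 or any 1 neonatal valve array, with log2 differences of 1.75 to 2.06, and without the filter on low signals (above the median of all values, 171.9, on at least 3 arrays; adjusted p = 0.051 without it), which this probe set passed through the 3 adult aorta arrays and neonatal aorta 2. These arrays are all of aorta, so the filter itself favoured a lower signal in valves. Without the filter limma gave adult valve against adult aorta an adjusted p of 0.0013. Neonatal valve over neonatal aorta gave -1.47 ± 0.53 (adjusted p = 0.053), and adult over neonatal valve gave 0.26 ± 0.53 (adjusted p = 0.80).

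The other Ucp3 probe set, 1382958_at, read 102, 6.41 and 83.4 in adult valves, 915, 1269 and 379.5 in adult aortas, 84.4, 114 and 51.6 in neonatal valves, and 163, 250.4 and 119 in neonatal aortas. By group mean adult and then neonatal aortas were again highest, but the valve groups changed places. Adult over neonatal valve gave -1.06 ± 0.90 (limma, adjusted p = 0.49). The reading of 6.41 on adult valve 2 widened the spread. In adult valve over adult aorta this probe set differed by a log2 of -4.33 ± 0.90 (limma, adjusted p = 0.0038), or at least 9.82-fold lower with adult valve 2 set to the absent level. It too passed the filter only through aorta arrays, and without the filter limma gave an adjusted p of 0.0047. Adult over neonatal aorta gave 2.17 ± 0.90 (adjusted p = 0.17), with groups that did not overlap. Across the 12 arrays the log2 signals of both Ucp3 probe sets correlated with a Pearson r of 0.85, while the ratio of 1382958_at over 1387681_at ran from 0.103 to 1.79. The skeletal muscle markers were far higher on adult aorta 1 than on adult aorta 2 and 3, where Ucp3 was also above the neonatal aorta arrays. Neonatal aorta 2, highest of its group on both Ucp3 probe sets, also had the highest skeletal muscle sum of its group (57307, against 26638 and 16501). The part of skeletal muscle in the Ucp3 signals of these arrays was not tested.

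Cidea, a protein of lipid droplets that promotes their fusion and is a classical marker of brown fat, read 817, 1542 and 268 in adult valves, 1148, 21820.1 and 7337 in adult aortas, 1909, 2467 and 809 in neonatal valves, and 13992, 8858 and 5088 in neonatal aortas. All 12 arrays were well above the absent level. The groups of newborns did not overlap, whereas adult aorta 1 lay within the range of the adult valves. Cidea fell 8.16-fold in adult valve against adult aorta (log2 -3.03 ± 0.95, limma, adjusted p = 0.028). That call was lost without adult aorta 2 (-2.06), adult aorta 3 (-2.85), adult valve 1 (-3.14) or adult valve 3 (-2.34), and the difference was -4.18 without adult aorta 1. Neonatal valve over neonatal aorta gave -2.46 ± 0.95 (adjusted p = 0.069), and without adult aorta 1 in the fit its adjusted p was 0.015. Between ages, Cidea differed by -0.59 ± 0.95 in the aorta (adjusted p = 0.76) and by -1.17 ± 0.95 in the valves (adjusted p = 0.48).

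Ppargc1a, the coactivator PGC-1alpha, showed a different order of groups, highest in neonatal valves. On 1393743_at the signals were 460.3, 1059 and 200.5 in adult valves, 239, 491 and 163 in adult aortas, 2215, 1635 and 1735 in neonatal valves, and 267, 243 and 277 in neonatal aortas. Every neonatal valve array was above every other array. The signal rose 7.04-fold in neonatal valve over neonatal aorta (log2 2.82 ± 0.53, limma, adjusted p = 0.0026) and fell 4.01-fold in adult against neonatal valve (SE 0.53 on the log2 scale, adjusted p = 0.039). The age call was lost without any 1 of the neonatal aorta or neonatal valve arrays, without adult valve 1 and without adult valve 3 (log2 -2.09 to -1.40), under quantile normalization (-1.87) and median centring (-1.91), and, with the same difference, without the filter (adjusted p = 0.051), with control RNA signal as a block (adjusted p = 0.062) and on the arrays with control RNA signal only (adjusted p = 0.097). Adult over neonatal aorta gave 0.03 ± 0.53 (adjusted p = 0.98) and adult valve over adult aorta gave 0.78 ± 0.53 (adjusted p = 0.27).

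The second Ppargc1a probe set, 1395518_at, read 257, 450.5 and 149 in adult valves, 439, 786 and 366 in adult aortas, 1131, 602 and 735 in neonatal valves, and 492, 407 and 477 in neonatal aortas. Adult aorta 2 (786) lay above all but the first neonatal valve array. The signal too fell in adult against neonatal valve (log2 -1.62 ± 0.41, limma, adjusted p = 0.033), a call lost without the same arrays (log2 -1.82 to -1.22), under quantile normalization (-1.43) and median centring (-1.53), with control RNA signal as a block (adjusted p = 0.054) and on the arrays with control RNA signal only (adjusted p = 0.088). Neonatal valve over neonatal aorta was 0.80 ± 0.41 (adjusted p = 0.16), with groups that did not overlap. In adult valve over adult aorta the probe sets had opposite signs, and 1395518_at gave -0.96 ± 0.41 (adjusted p = 0.087), so a direction for Ppargc1a between adult tissues was not settled. The third probe set, 1370089_at, which was not tested because it exceeded the median of all values on too few arrays, read 41.9, 56.8 and 27.3 in adult valves, 60.6, 143 and 32.1 in adult aortas, 197, 152 and 216 in neonatal valves, and 55.7, 59.7 and 86.1 in neonatal aortas. Its 3 neonatal valve arrays were also the highest of the 12.

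Cpt1b is the muscle and brown fat form of carnitine palmitoyltransferase, which admits long-chain fatty acids to the mitochondrion. It read 209, 1196 and 219 in adult valves, 2399, 8607 and 1794 in adult aortas, 4501, 4199 and 2499 in neonatal valves, and 5016, 4222 and 2345 in neonatal aortas. Adult valves were the low group, with no array above any array of the other groups. Cpt1b fell 9.52-fold in adult against neonatal valve (log2 -3.25 ± 0.71, limma, adjusted p = 0.019) and 8.78-fold in adult valve against adult aorta (log2 -3.13 ± 0.71, adjusted p = 0.0059). The age call was lost without neonatal valve 1 (-3.09), neonatal valve 2 (-3.14), adult valve 1 (-2.82) or adult valve 3 (-2.85). Between neonatal tissues the difference was -0.02 ± 0.71 (adjusted p = 0.98), and between adult and neonatal aorta it was -0.14 ± 0.71 (adjusted p = 0.93).

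Fabp3, the fatty acid binding protein of heart and muscle that is also induced in brown fat, read 1015, 3348 and 430.1 in adult valves, 1168, 2969 and 1849 in adult aortas, 9841, 7593 and 5947 in neonatal valves, and 2523, 1918 and 3115 in neonatal aortas. As on Ppargc1a 1393743_at, the neonatal valve arrays were the highest of the 12. Fabp3 fell 6.72-fold in adult against neonatal valve (log2 -2.75 ± 0.60, limma, adjusted p = 0.020), a call lost without neonatal valve 1 (-2.57), neonatal valve 2 (-2.75) or adult valve 1 (-2.67). Neonatal valve over neonatal aorta gave 1.63 ± 0.60 (adjusted p = 0.059, groups not overlapping), adult valve over adult aorta gave -0.71 ± 0.60 (adjusted p = 0.38), and adult over neonatal aorta gave -0.41 ± 0.60 (adjusted p = 0.74). Among adult valves, array 2 was highest for Fabp3, Ppargc1a, Cpt1b and Cidea and also for the summed cardiac markers (132117, against 21720 and 8675), and without it the adult over neonatal valve differences were -3.53 for Fabp3 and -4.08 for Cpt1b. Of the 14 cardiac markers, 2 fell in adult over neonatal valve (median -2.56), or 14.3% called, against 9.21% of all probe sets (5.21% called lower). In neonatal valve over neonatal aorta 3 rose (median 1.82), or 21.4% called, against 32.6% of all probe sets (13.3% called higher). The cardiac sum of adult valve 2 lay within that of neonatal valves (130586 to 145423), while its Fabp3 and Cpt1b signals lay below all 3 of theirs. The part of heart muscle in these signals was not tested.

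**Figure D2:**
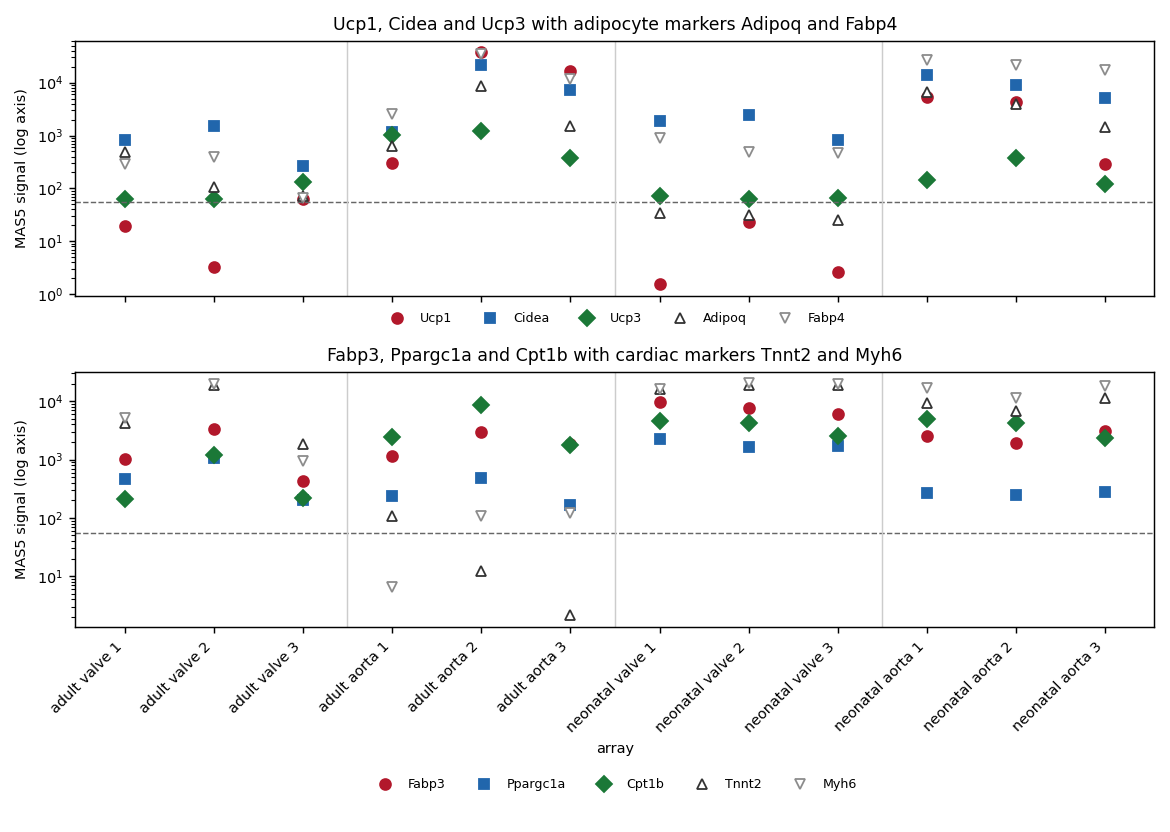
MAS5 signal (log axis) on each array (x axis) for Ucp1, Cidea and Ucp3 beside the adipocyte markers Adipoq and Fabp4 (upper), and for Fabp3, Ppargc1a and Cpt1b beside the cardiac markers Tnnt2 and Myh6 (lower), with the dashed line at the absent level of 54.6. Adult aorta 2 has the highest Ucp1 (37326), Cidea and Adipoq signals of the 12 arrays.

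Dio2, the deiodinase that activates thyroid hormone inside brown adipocytes, and Elovl3, a fatty acid elongase induced by cold, were at or near the absent level and were not tested. Dio2 read 5.67, 9.70 and 6.63 in adult valves, 20.3, 68.9 and 99.4 in adult aortas, 6.17, 2.999 and 14.4 in neonatal valves, and 7.37, 59.4 and 4.997 in neonatal aortas. It exceeded 54.6 on 3 arrays, all of aorta, 2 of them adult aortas 2 and 3, where Ucp1 was highest. Elovl3 read 0.528 to 32.8 over the 12 arrays, below 54.6 on every one.

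Read against all 18552 probe sets tested, the 8 tested member probe sets (6 genes) were counted for each comparison by limma at an adjusted p under 0.05. In adult over neonatal aorta 1 of 8 was called, higher (Ucp3), against 7.31% of all probe sets (1.94% called higher), and the median log2 difference was 0.08 for members and -0.08 for all. In adult over neonatal valve 4 of 8 were called, all lower, against 9.21% of all probe sets (5.21% called lower), with medians of -1.39 and -0.04. In neonatal valve over neonatal aorta 2 of 8 were called, Ppargc1a higher and Ucp1 lower, against 32.6% of all probe sets (13.3% called higher and 19.3% lower), with medians of -0.56 and -0.09. In adult valve over adult aorta 5 of 8 were called, all lower, against 37.1% of all probe sets (19.9% called lower), with medians of -3.08 and -0.05. Since Ucp1 and Ucp3 passed the signal filter only through arrays of aorta, these counts describe the probe sets tested and not all 11.

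**Figure D3:**
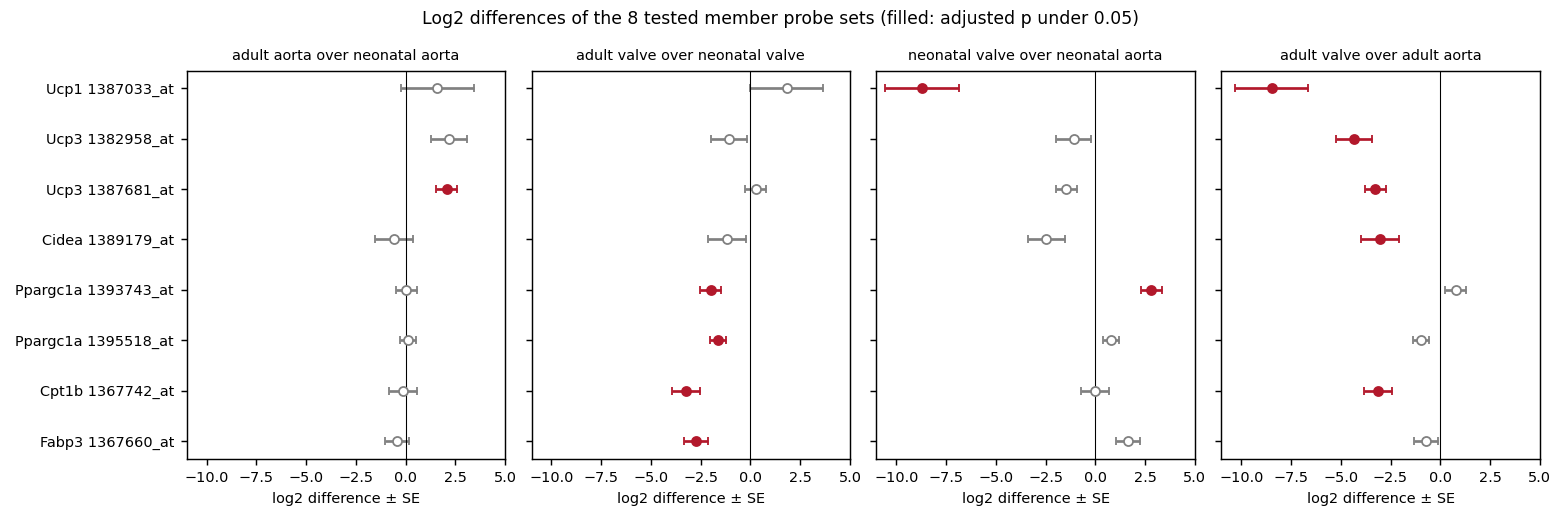
Log2 difference (x axis) and standard error of each tested member probe set in the comparisons of 2 groups, with filled points for adjusted p under 0.05. Differences of adult valve over adult aorta are below 0 for 7 of the 8 probe sets. Of these, 5 (4 genes) are called, against 37.1% of all probe sets (19.9% called lower). Ucp1 and both Ucp3 probe sets passed the signal filter only through arrays of aorta.

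The difference between the age effects of both tissues was tested as an interaction, adult over neonatal valve minus adult over neonatal aorta. No member probe set was called by limma (0 of 8, lowest adjusted p 0.26), against 0.0593% of all probe sets. At an unadjusted p under 0.05 there were 6 of 8 (4 of 6 genes), beside 2170 of all 18552 probe sets. Cpt1b gave -3.11 ± 1.00, Ucp3 1387681_at -1.80 ± 0.74, Ppargc1a 1393743_at -2.03 ± 0.75 and Fabp3 -2.34 ± 0.85. For Ucp1 it was 0.23 ± 2.60, an SE far larger than the value. The calls of Cpt1b, Fabp3 and Ppargc1a in the valves alone are thus not shown to differ from the aorta.

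Other brown fat genes, a list of 42 regulators and markers of which 37 were measured and 29 tested, were called between tissues mostly in 1 direction, lower in valves. In adult valve over adult aorta 13 of 29 fell and 1 rose (median -1.33), or 48.3% called, against 37.1% of all probe sets (19.9% called lower, median -0.05). Of the 29, Ebf2, Pparg, Adrb3, Slc36a2, P2rx5 and Plin5 exceeded the filter on aorta arrays only and Epsti1 on valve arrays only, so the filter itself favoured their directions, and all 6 were among the 13. Without the filter 14 of 37 fell and 1 rose, against 25.9% of all probe sets called. Cox8b, a subunit of cytochrome oxidase in muscle and brown fat, fell 21.4-fold (log2 -4.42 ± 0.68, limma, adjusted p = 0.00078). Slc36a2, an amino acid transporter used as a brown fat surface marker, read 24.3 to 73.3 in adult valves and 195 to 2002 in adult aortas (adjusted p = 0.0020). Also lower were Cidec, Adrb3 (the beta-3 adrenergic receptor), Cebpb, Pparg (the master regulator of fat cell formation), Cebpa, Pank1, Plin5, Slc27a2, P2rx5, Ebf2 (a factor that commits cells to brown fat) and Esrra, and Epsti1 was higher.

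In neonatal valve over neonatal aorta 9 of the 29 fell and 1 rose (median -0.79), or 34.5% called, a share near the 32.6% of all probe sets (19.3% called lower, median -0.09), and 5 of the 9 exceeded the filter on aorta arrays only. The 9 were Cidec, Cebpb, Cebpa, Adrb3, Pparg, Slc36a2, Ebf2, Plin5 and S100b. The 1 that rose was Esrrg (log2 2.49 ± 0.48, limma, adjusted p = 0.0029), an oestrogen-related receptor of oxidative tissue such as heart, with the same group high as for Ppargc1a. Between ages few changed: in the aorta 1 rose (Cox8b, log2 2.79 ± 0.68, adjusted p = 0.033), and in the valves Cebpb and Thrb rose and Ppargc1b, the close relative of Ppargc1a, fell (median 0.12 in the aorta and -0.13 in the valves), or 1 of 29 against 7.31% of all probe sets and 3 of 29 against 9.21%. Cox8b read 12350, 17566 and 4106 in adult aortas and 1660, 1204 and 1346 in neonatal aortas. The skeletal muscle sum was 273084 on adult aorta 1 and 19802 on adult aorta 2, where Cox8b was highest. Neonatal aorta 2 had the highest skeletal muscle sum of its group (57307) and the lowest Cox8b. The part of skeletal muscle in the Cox8b signals was not tested. Prdm16, which specifies brown over muscle fate, was not called in any comparison of 2 groups and read 93.1 to 1023 in adult aortas and 548 to 576 in neonatal aortas.

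**Figure D4:**
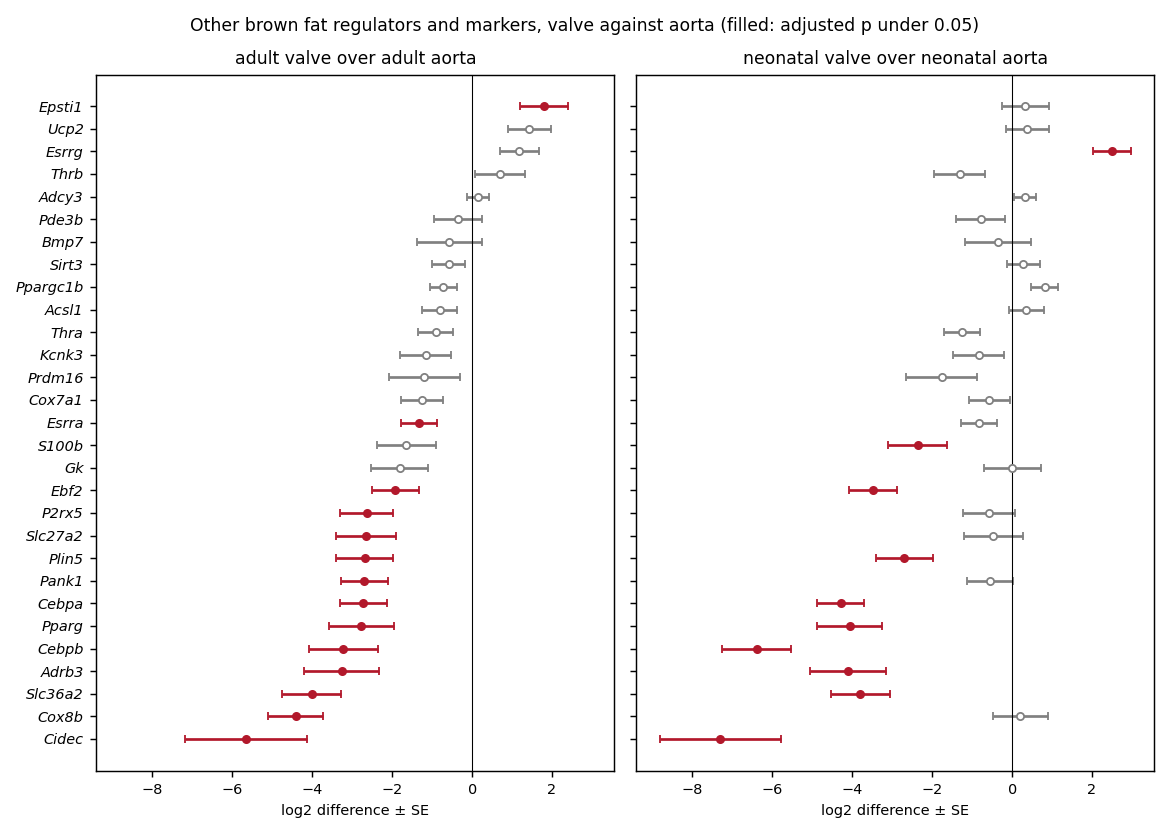
Log2 difference (x axis) with its standard error for each of the 29 tested genes of the brown fat list, in adult valve over adult aorta and in neonatal valve over neonatal aorta, with filled points for adjusted p under 0.05. In adult valve over adult aorta 13 of 29 genes are called lower and 1 higher, against 37.1% of all probe sets called, and in neonatal valve over neonatal aorta 9 are called lower and 1 higher, against 32.6%.

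General adipocyte genes and fatty acid oxidation genes are given beside the same shares of all probe sets called: 37.1% in adult valve over adult aorta, 32.6% in neonatal valve over neonatal aorta, 7.31% in adult over neonatal aorta and 9.21% in adult over neonatal valve. Of 18 adipocyte genes tested, 12 fell and 0 rose in adult valve over adult aorta (median -3.18), 11 fell and 0 rose in neonatal valve over neonatal aorta (median -2.52), 1 rose in adult over neonatal aorta (Thrsp, a lipogenic gene; median 0.08), and in adult over neonatal valve limma called 0 (2 at an unadjusted p under 0.05; median 0.08). Adipoq, the adipocyte hormone adiponectin, read 493, 106 and 73.1 in adult valves, 634, 8805 and 1512 in adult aortas, 34.9, 32.1 and 25.5 in neonatal valves, and 6500, 3945 and 1449 in neonatal aortas. Of 19 fatty acid oxidation genes tested, 13 fell and 0 rose in adult valve over adult aorta (median -1.57) and 2 fell in adult over neonatal valve (Cpt1a and Hadha, median -1.20), while limma called 0 between neonatal tissues (0 at an unadjusted p under 0.05, median -0.22) and 0 between adult and neonatal aorta (2 at an unadjusted p under 0.05, median 0.06). Cpt1b, which is not on this list, was likewise called lower in both comparisons with adult valves.

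**Figure D5:**
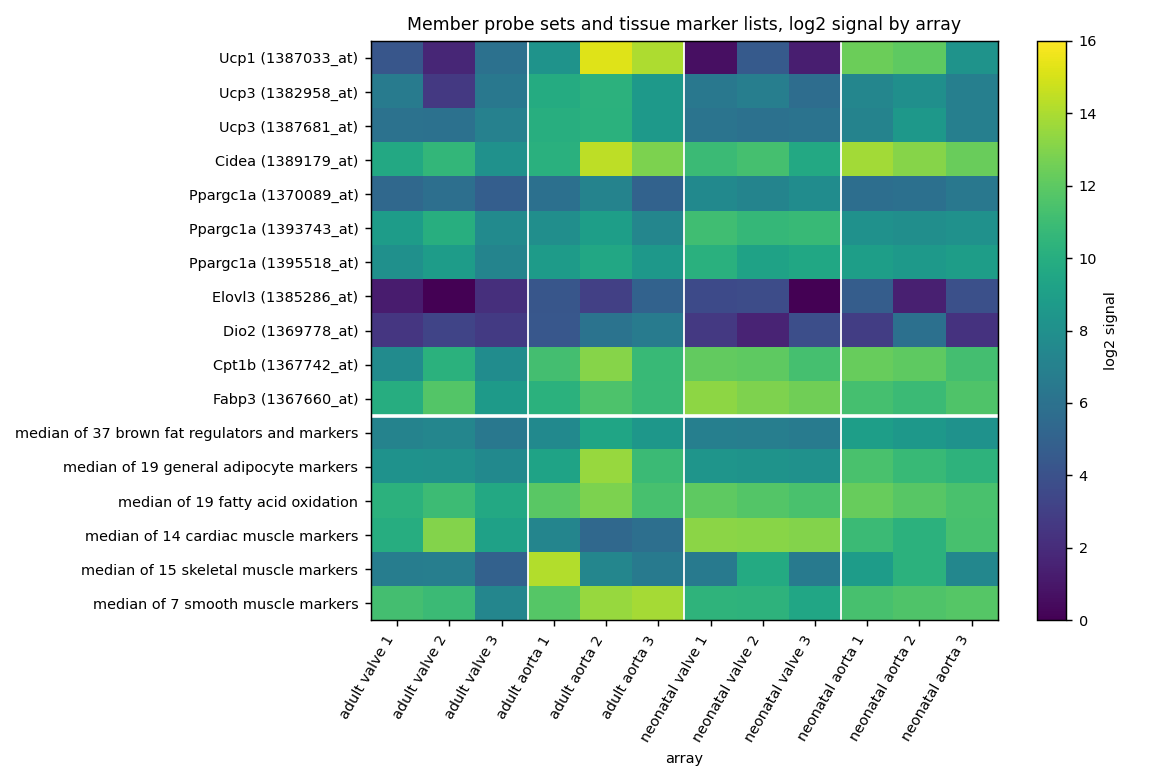
Log2 signal, as colour, of each member probe set and the median log2 signal of 6 gene lists (rows) on each array (columns). Ucp1 is brightest on adult aorta 2, as is the median of the 19 adipocyte markers, and Fabp3 is brightest on neonatal valve arrays. The median of the 14 cardiac markers is high there (log2 13.0 to 13.2) and on adult valve 2 (13.0). Fabp3 reads 3348 on adult valve 2 and 5947 to 9841 on neonatal valve arrays.

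Adult aorta 2 was the brightest of the 12 arrays for 4 of the 8 members, 19 of the 37 brown fat genes, 17 of the 19 adipocyte genes and 17 of the 19 fatty acid oxidation genes, against 9.41% of all probe sets tested. Pairs of aorta arrays, chosen after their values were seen and given as values only, set Ucp1, Ucp3 and Cidea beside adipocyte genes. On adult aorta 3 against neonatal aorta 1, Ucp1 was 3.06-fold and Ucp3 2.65-fold higher, while Cidea was 1.91-fold, Adipoq 4.30-fold and Fabp4 2.21-fold lower, and 5 of 18 adipocyte genes were higher. On adult aorta 1 against neonatal aorta 3, Ucp1 was 1.02-fold and Ucp3 8.61-fold higher, while Cidea was 4.43-fold and Adipoq 2.29-fold lower, and 5 of 18 adipocyte genes were higher. On adult aorta 2 against neonatal aorta 1 all 4 were higher, Ucp1 6.92-fold, Ucp3 8.26-fold, Cidea 1.56-fold and Adipoq 1.35-fold, and 17 of 18 adipocyte genes were higher. On adult aorta 1 against neonatal aorta 1, Ucp3 was 7.19-fold higher, while Ucp1 was 17.9-fold, Cidea 12.2-fold, Adipoq 10.3-fold and Fabp4 10.5-fold lower, and 5 of 18 adipocyte genes were higher. Of all 18552 probe sets tested, 8776, 7641, 8757 and 7578 were higher on the adult array of these pairs, in the order given.

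The genes most like each member, by Pearson correlation of log2 signal over all 12 arrays, are given as a description, since the arrays share groups and RNA quality. For Ucp1 they were Slc36a2 (0.97), Nav2 (0.96), Jam2 (0.96), Pex10 (0.95) and Smarcc2 (0.94), and for Cidea Crls1 (0.96), Agpat2 (0.96), Plin5 (0.96), Iars2 (0.95) and Prkag2 (0.94). For Cpt1b they were Hadha (0.98), Etfb (0.97), Eno1 (0.96), Ndufv1 (0.96) and Hadh (0.95), of which Hadha, Etfb and Hadh act in fatty acid oxidation. Ucp3 was most like Camsap3 (0.96), Ppargc1a like Lman2l (0.95) and Fabp3 like Stk39 (0.94). Among the members themselves, Ucp1 correlated with Ucp3 at 0.78 and Cidea at 0.76 and with Ppargc1a at -0.74, and Ppargc1a correlated with Fabp3 at 0.80.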

How the data were processed

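Signals (intensity) of 12 Affymetrix rat arrays were made by the submitters with MAS5 in Affymetrix Expression Console, per the submitters' processing notes; the deposited intensity table was used as it stands and no depth applies to arrays, whose number limits the precision. Groups follow the sample titles. Signals were floored at 1 and taken to log2. Probe sets above the median of all values (171.9) on at least 3 of 12 arrays were kept (18552 of 31042, after leaving out 57 control probe sets), and the 4 groups were fitted in limma 3.58.1 (R 4.3.3), leaving 8 residual degrees of freedom, with moderated variances that follow signal level (eBayes, trend), two-sided tests, Benjamini-Hochberg adjustment over every probe set tested, and calls at an adjusted p under 0.05. Symbols came from the platform annotation: 20826 probe sets had 1 symbol, 436 several and 9780 none, and 20758 of the 20826 matched the reference by gene ID. From each list other than the members 1 probe set per gene (the highest mean log2) was used, all called brown fat genes and up to 4 genes of other lists per comparison were named, and the 5 genes most correlated with each member were computed. Members and lists were chosen with earlier results of these data known. Recovery was tested on simulated data: of probe sets changed by a log2 of 2, 64.5% were called in adult over neonatal aorta and 62.4% in adult over neonatal valve. The simulated noise was normal and independent, and far fewer probe sets were changed than were called in the real data. These shares therefore need not hold for the real data. The replicate numbers were not used as a pairing in the main fit. Deviations of same-numbered arrays from their group means were correlated. The correlations ran from -0.31 to 0.24 in adult over neonatal aorta and from 0.078 to 0.16 in adult over neonatal valve. They ran from 0.027 to 0.13 in neonatal valve over neonatal aorta and from -0.27 to -0.089 in adult valve over adult aorta. In no comparison was every pair over 0.1. Alternatives changed the scaling, floor, filter, weights, grouping and arrays used.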

Additional observations from a re-analysis of the deposited data

How the results depend on the processing

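The number of member probe sets called changed with the processing, and, apart from the filter on 6 arrays, the cause was not tested. In adult over neonatal aorta the 1 call became 2 with log2 of the signal plus 32, with array weights and with groups by the description and tissue entries, and 0 without the filter, with a filter on 6 arrays, with the replicate number as a block, with the presence of control RNA signal as a block and on the arrays with control RNA signal only, and it ran from 0 to 2 when 1 array was left out. In adult over neonatal valve the 4 calls became 2 under quantile normalization, 2 under median centring, 2 with the control RNA block and 0 on the arrays with control RNAs only, and ran from 0 to 4 with 1 array left out; without the filter 4 were called, with Ppargc1a 1370089_at gained (adjusted p = 0.039) and Ppargc1a 1393743_at lost (adjusted p = 0.051). In neonatal valve over neonatal aorta the 2 calls became 1 with the control RNA block, 0 on the arrays with control RNAs, 1 by the description and tissue entries and 6 with array weights, and ran from 2 to 5. In adult valve over adult aorta the 5 calls became 3 with the filter on 6 arrays, which both Ucp3 probe sets fail and under which they have no value, and ran from 4 to 7. The interaction had 0 calls under all 11 such settings and 12 left-out arrays.

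Grouping by the description and tissue entries, which exchanges adult aorta and neonatal valve, swaps adult over neonatal aorta with neonatal valve over neonatal aorta, and adult over neonatal valve with adult valve over adult aorta. It turned the sign of 14 of the 32 member differences, of which 11 were called or of at least 1 as reported. These were adult over neonatal aorta for Ucp1 (-8.71) and for Ucp3 (-1.10 and -1.47), adult over neonatal valve for Ucp1 (-8.48) and Ppargc1a (0.78), neonatal valve over neonatal aorta for Ucp1 (1.59), Ucp3 (2.17 and 2.06) and Fabp3 (-0.41), and adult valve over adult aorta for Ucp1 (1.83) and Ucp3 (0.26). The other 3 were Fabp3 in adult over neonatal aorta (1.63), Ucp3 1387681_at in adult over neonatal valve (-3.27) and Ppargc1a 1393743_at in adult valve over adult aorta (4.01-fold lower). Ucp3 1382958_at in adult over neonatal valve ran from -1.78 to 0.22 with 1 array left out and turned positive without adult valve 2. Ucp1 and both Ucp3 probe sets in adult valve over adult aorta, and Ucp1 and Ppargc1a 1393743_at in neonatal valve over neonatal aorta, kept their calls whichever array was left out. On the arrays with control RNAs only, neonatal valve over neonatal aorta gave -10.22 for Ucp1 (limma, adjusted p = 0.064) and 2.79 for Ppargc1a (adjusted p = 0.095).

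Over all probe sets, calls ran from 14 to 6043 in adult over neonatal aorta (1357 as reported), 662 to 6891 in adult over neonatal valve (1709), 641 to 9706 in neonatal valve over neonatal aorta (6043), 1709 to 8038 in adult valve over adult aorta (6891) and 0 to 165 for the interaction (11). Median centring shifted the median log2 difference of all probe sets to 0.34 in adult valve over adult aorta and 0.24 in neonatal valve over neonatal aorta, and turned the split of calls there to 5308 higher and 2264 lower (3207 and 3684 as reported) and to 4072 higher and 2381 lower (2461 and 3582); in adult over neonatal valve it was 873 and 670 (742 and 967). Whether the replicate numbers pair the arrays was not settled. With them as a block, the 1 member call of adult over neonatal aorta was lost (0 called; Ucp3 1387681_at, limma, adjusted p = 0.061). Of the 6 arrays in each comparison, some correlated best with the array of their own number. These were 2 in adult over neonatal aorta, 5 in adult over neonatal valve, 4 in neonatal valve over neonatal aorta and 0 in adult valve over adult aorta.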
